A study of Mus musculus with 6 samples.

Results

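The genes described here make prostanoids and leukotrienes, the lipid mediators formed from arachidonic acid, or receive prostanoid signals. The 10 members were taken by name from the deposited gene table of 47643 Ensembl genes: the oxygenases Ptgs1 and Ptgs2, the terminal synthases Ptgis, Ptges and Tbxas1, the receptors Ptger2, Ptger4 and Ptgir, and the starting pair of leukotriene synthesis, Alox5 and Alox5ap. All 10 were found and all 10 passed the filter on low counts. RNA was sequenced from aorta of Apoe-/- mice, which lack apolipoprotein E and develop high plasma cholesterol and atherosclerosis. Mice of the EPO group (3 libraries) were injected intraperitoneally for 4 weeks with recombinant human erythropoietin, the hormone that drives red cell production, at a daily dose of 5000 IU/kg. Those of the Vehicle group (3 libraries) were given saline by the same route over the same 4 weeks. The Apoe deletion is shared by both groups, so neither is a normal aorta, and the labels used here give no age or sex of the animals and do not say that each library is a separate animal. The p-values therefore measure the spread between these 6 libraries.

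Cyclooxygenases turn arachidonic acid into prostaglandin H2, an unstable intermediate that terminal synthases convert further. In the vessel wall prostacyclin synthase makes prostacyclin, which relaxes smooth muscle and restrains platelets, while thromboxane synthase, best known from platelets and macrophages, makes thromboxane A2, which constricts vessels and activates platelets. Prostaglandin E2 acts through 4 receptors, of which EP2 (Ptger2) and EP4 (Ptger4) raise cyclic AMP, as does the prostacyclin receptor (Ptgir). Leukotrienes start from 5-lipoxygenase (Alox5), which needs the membrane protein FLAP (Alox5ap) to receive arachidonic acid and is found mainly in myeloid cells.

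With EPO, prostacyclin synthase fell 2.30-fold, FLAP rose 3.34-fold, thromboxane synthase rose 2.0-fold and the EP2 receptor rose 1.76-fold. The first pair kept their calls with any 1 library left out, while Tbxas1 and Ptger2 sat close to the threshold and lost theirs when any 1 of 4 (Tbxas1) or of 5 (Ptger2) of the 6 libraries was left out. Both cyclooxygenases, prostaglandin E synthase, the EP4 and prostacyclin receptors and 5-lipoxygenase did not pass the test. In edgeR's quasi-likelihood test, adjusted over the 16522 genes tested and called at an adjusted p under 0.05, 3 of the 10 members were higher and 1 lower, beside 12.9% and 10.1% of all tested genes. In either direction 4 of 10 members were called, where 23.0% of all genes were. In CPM (counts relative to library size, with TMM scaling) the groups did not overlap for 6 members, beside 43.8% of all genes. Of these, 5 were higher and 1 lower, beside 22.9% and 21.0% of all genes. The median log2 fold change was 0.36 over the members and 0.01 over all tested genes.

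Total counts ran from 23278649 to 38502430 per library, so a count of 0 allows up to 0.129 CPM in the shallowest library and 0.0779 CPM in the deepest, from counting error alone. Apoe was at 7.65 to 20.1 CPM in Vehicle and 11.4 to 38.6 CPM in EPO, and without normal aorta these values do not check the deletion. The contractile smooth muscle genes that mark aorta were abundant, with Acta2 at 2715 CPM or more in each library. Several marker lists of other cells moved with the groups, though the ranges of the neutrophil list overlapped. The part of these lists in the results was not tested unless a value is given. Skeletal muscle genes summed to 6.1 to 13.9 CPM in Vehicle and 312 to 2713 CPM in EPO (8 of 8 higher), neutrophil genes to 21.1 to 64.6 and 54.9 to 512 CPM (2 of 7 tested higher), platelet genes to 42.5 to 50.4 and 129 to 256 CPM (2 of 8 tested higher), and mast cell genes to 57.8 to 69.5 and 26.2 to 50.5 CPM (4 of 7 tested lower). White adipocyte genes summed to 2461 to 5780 CPM in Vehicle and 1606 to 1717 CPM in EPO (5 of 8 lower). Fibroblast genes summed to 6471 to 7833 CPM in Vehicle and 26699 to 33436 CPM in EPO (2 of 8 higher, 1 lower), a rise carried by Col1a1. No gene of these lists was at 0 in every library. EPO 1 had the highest macrophage and EPO 3 the highest neutrophil and platelet levels.

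**Figure D1:**
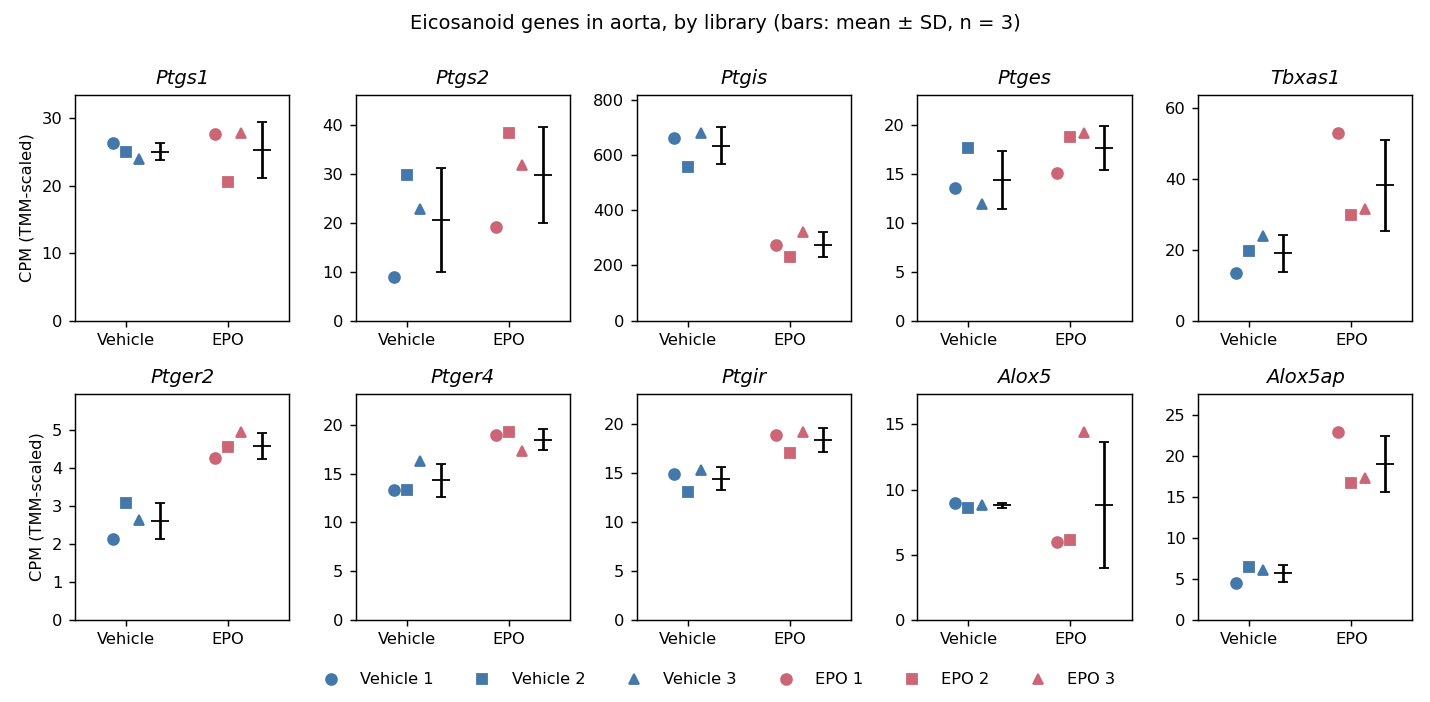
CPM (TMM-scaled, linear axes from 0) of the 10 members in each of the 6 libraries, with the mean and SD of each group beside the points (n = 3). The groups are apart for Ptgis, Tbxas1, Ptger2, Ptger4, Ptgir and Alox5ap, and overlap for Ptgs1, Ptgs2, Ptges and Alox5.

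Both cyclooxygenases were within the spread between libraries. Ptgs1 (COX-1, the constitutive form; ENSMUSG00000047250, GRCm38 chromosome 2, 36230426 to 36252272) was at 26.3, 24.9 and 23.9 CPM in Vehicle 1, 2 and 3 and at 27.6, 20.5 and 27.8 CPM in EPO 1, 2 and 3. The EPO libraries lay on both sides of the Vehicle libraries, and the 95% interval of the fold, 0.793 to 1.29, does not reach 1.5-fold in either direction (log2 fold change 0.02, SE 0.15, edgeR adjusted p = 0.953). Ptgs2 (COX-2, the form induced by inflammatory stimuli; ENSMUSG00000032487, chromosome 1, 150100031 to 150108227) was at 9.0, 29.8 and 22.7 CPM in Vehicle and at 19.1, 38.4 and 31.9 CPM in EPO. Vehicle 1 was the lowest and EPO 2 the highest library, and the groups overlapped. The interval of the Ptgs2 fold, 0.727 to 2.89, holds both no change and a rise of more than 2-fold (log2 fold change 0.54, SE 0.43, edgeR adjusted p = 0.403).

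The ratio of Ptgs2 to Ptgs1 within a library does not depend on library scaling. Per kb of exon it was 0.291, 1.01 and 0.808 in Vehicle and 0.587, 1.59 and 0.972 in EPO. On the log2 scale the means were -0.69 ± 0.961 and -0.05 ± 0.719 (SD, n = 3), a difference of 0.64 that was smaller than the spread within Vehicle (exact permutation p = 0.5, two-sided; 0.5 after adjustment over 3 ratios). The smallest p that 3 libraries against 3 can give in this test is 0.1.

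Of the terminal synthases, Ptgis fell, Tbxas1 rose and Ptges did not pass. Ptgis, prostacyclin synthase (ENSMUSG00000017969, chromosome 2, 167191805 to 167240604), was at 662, 557 and 680 CPM in Vehicle and at 274, 231 and 321 CPM in EPO. The highest EPO library lay well below the lowest Vehicle library. The group levels were 633 ± 66.5 and 275 ± 45.1 CPM (SD, n = 3), and the log2 fold change was -1.20 (SE 0.17, 95% interval -1.61 to -0.80, edgeR adjusted p = 0.00448). Leaving out single libraries gave log2 fold changes from -1.33 to -1.09, each still called.

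Ptgis was by far the most abundant member in both groups. On the scale of level per length (RPKM, CPM per kb of annotated exon), it stood at 247 ± 25.9 in Vehicle and 107 ± 17.6 in EPO. Its share of the summed RPKM of the 10 members was 90.9%, 86.9% and 89.6% in Vehicle and 69.0%, 67.2% and 72.5% in EPO.

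The 8 contractile smooth muscle markers all fell in the same libraries. Their summed level was 20050 to 28540 CPM in Vehicle and 7230 to 9336 CPM in EPO, and their median log2 fold change was -1.55, beyond the -1.20 of Ptgis. In bulk RNA of aorta, fewer cells of a type and less RNA per cell cannot be told apart. Per 1000 counts of that list, Ptgis had 23.2, 27.8 and 28.5 counts in Vehicle and 37.8, 30.4 and 34.4 counts in EPO, so that against these markers every EPO library was above every Vehicle library. The order was the same without Acta2, which held 42.7% of the list's counts (41.8 to 48.9 in Vehicle and 55.7 to 60.6 in EPO). Since the list itself fell, any gene that fell less than the list would also rise on this scale. These ratios to marker lists were chosen after the values were seen and carry no test.

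Ptges, the inducible microsomal prostaglandin E synthase (ENSMUSG00000050737, chromosome 2, 30889471 to 30929863), was at 13.6, 17.7 and 11.9 CPM in Vehicle and at 15.1, 18.8 and 19.2 CPM in EPO. Vehicle 2 lay within the range of the EPO libraries. The interval of its fold was 0.908 to 1.67 (log2 fold change 0.30, SE 0.19, edgeR adjusted p = 0.291).

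Tbxas1, thromboxane synthase (ENSMUSG00000029925, chromosome 6, 38875404 to 39084585), was at 13.5, 19.7 and 23.9 CPM in Vehicle and at 53.0, 29.9 and 31.5 CPM in EPO. EPO 1 was the highest of the 6 libraries, and the groups did not overlap. The levels were 19 ± 5.21 and 38.1 ± 12.9 CPM, with a log2 fold change of 1.0 (SE 0.28, 95% interval 0.34 to 1.66, edgeR adjusted p = 0.0411). The call was lost without Vehicle 1, Vehicle 2, EPO 1 or EPO 3 (edgeR adjusted p = 0.133, 0.114, 0.0806 and 0.0511), and without EPO 1 the log2 fold change was 0.68.

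The summed level of the 12 macrophage markers, like Tbxas1, was lowest in Vehicle 1 and highest in EPO 1, though Itgam and Mertk among them did not follow that order throughout. The 12 summed to 2035, 3659 and 4036 CPM in Vehicle 1, 2 and 3 and to 9856, 4700 and 4279 CPM in EPO 1, 2 and 3. Of the 12, Adgre1 and Fcgr1 (named, as those, after their values were seen) rose and none fell, with a median log2 fold change of 1.17. Per 1000 counts of the macrophage list, Tbxas1 had 6.64, 5.38 and 5.92 counts in Vehicle and 5.38, 6.36 and 7.35 in EPO. On that scale the groups overlapped, with means of 5.98 ± 0.633 and 6.37 ± 0.987 (SD, n = 3), and they overlapped as well without Lyz2, which held 48.1% of the list's counts. The platelet markers summed to 42.5, 45.9 and 50.4 CPM in Vehicle and to 129, 137 and 256 CPM in EPO, highest in EPO 3. Tbxas1 was not set against that list, and the part of platelets in its rise was not tested.

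**Figure D2:**
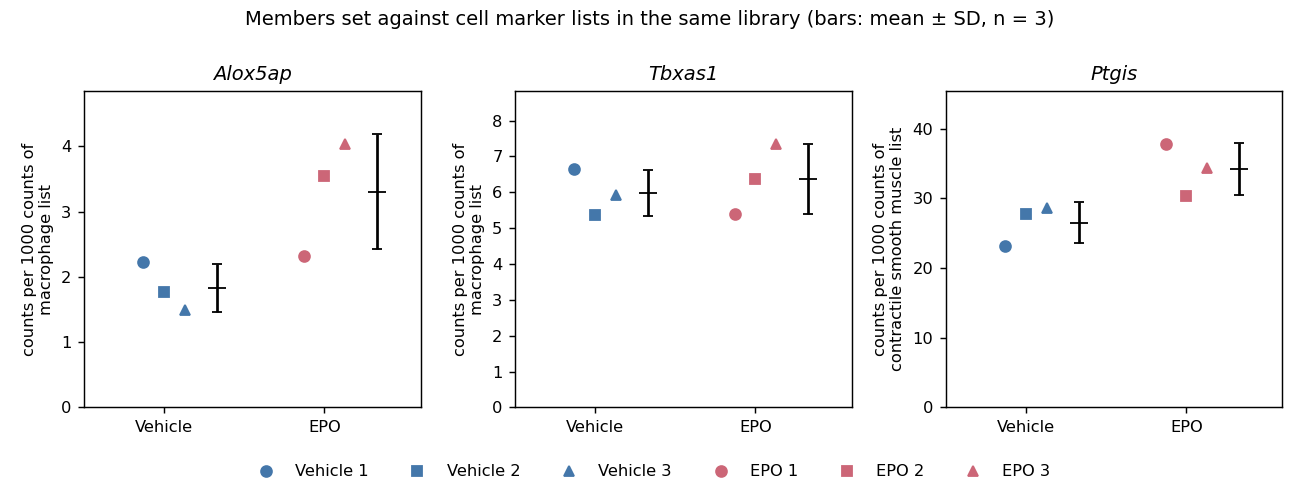
Counts of Alox5ap and Tbxas1 per 1000 counts of the macrophage list, and of Ptgis per 1000 counts of the contractile smooth muscle list, in each library, with the mean and SD of each group (n = 3; linear axes from 0). The groups overlap for Tbxas1, while for Alox5ap the lowest EPO library (2.32) is just above the highest Vehicle library (2.22) and for Ptgis the EPO libraries are above the Vehicle libraries.

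The ratio of the thromboxane to the prostacyclin synthase within a library does not depend on scaling; since it moves with either gene, it does not show a change of both. Per kb of exon, Ptgis exceeded Tbxas1 173-fold, 100-fold and 101-fold in Vehicle and 18.3-fold, 27.3-fold and 36.1-fold in EPO. The log2 ratio of Tbxas1 to Ptgis was -6.91 ± 0.454 in Vehicle and -4.71 ± 0.494 in EPO (SD, n = 3), a difference of 2.20. Each of the 3 EPO libraries was above all Vehicle libraries (two-sided exact permutation p = 0.1, which is the smallest possible here; 0.3 after adjustment over 3 ratios). The difference lay between 1.94 and 2.43 with single libraries left out. Ptgis stayed the more abundant of the pair in all 6 libraries.

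**Figure D3:**
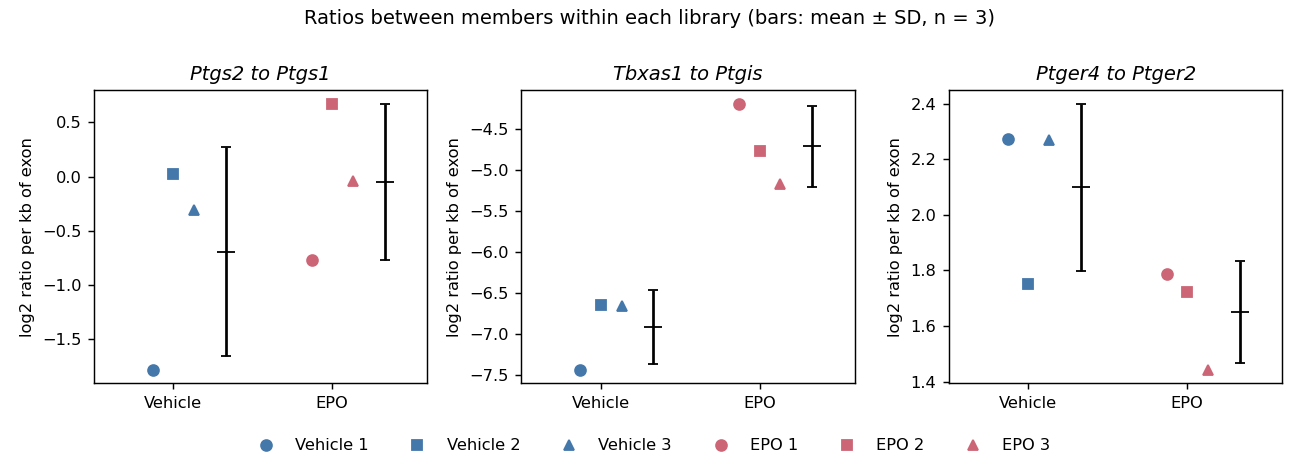
Log2 ratio per kb of exon between 3 pairs of members within each library, with the mean and SD of each group (n = 3). The ratio of Tbxas1 to Ptgis is higher in all 3 EPO libraries, while the ratios of Ptgs2 to Ptgs1 and of Ptger4 to Ptger2 overlap between groups.

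The 3 receptors, all of which raise cyclic AMP, were above Vehicle in every EPO library, as were 22.9% of all tested genes. Of the 3, only Ptger2 passed the test. Ptger2, the EP2 receptor (ENSMUSG00000037759, chromosome 14, 44988195 to 45003820), had few reads, with 49, 79 and 76 counts in Vehicle and 153, 134 and 165 counts in EPO. This came to 2.13, 3.07 and 2.62 CPM and to 4.27, 4.55 and 4.96 CPM, with a clear gap between the groups. The log2 fold change was 0.81 (SE 0.23, 95% interval 0.27 to 1.36, edgeR adjusted p = 0.043). The call held without EPO 1 (0.0469) and was lost without any other single library (edgeR adjusted p from 0.0798 to 0.161), with library size alone as the scaling (0.0582) and with no filter (0.0701), while the log2 fold change stayed between 0.66 and 0.93 over all alternatives.

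Ptger4, the EP4 receptor (ENSMUSG00000039942, chromosome 15, 5206661 to 5244187), was at 13.3, 13.3 and 16.3 CPM in Vehicle and at 18.9, 19.3 and 17.3 CPM in EPO. Vehicle 3 was close to EPO 3. The fold was 1.29 with an interval of 1.03 to 1.63, and it did not pass (log2 fold change 0.37, SE 0.14, edgeR adjusted p = 0.1). Ptgir, the prostacyclin receptor (ENSMUSG00000043017, chromosome 7, 16906490 to 16910905), was at 14.9, 13.1 and 15.3 CPM in Vehicle and at 18.9, 17 and 19.2 CPM in EPO. Its fold was 1.27 with an interval of 1.03 to 1.58 (log2 fold change 0.35, SE 0.13, edgeR adjusted p = 0.101). Per 1000 counts of the contractile smooth muscle list Ptgir had 0.521, 0.652 and 0.643 counts in Vehicle and 2.61, 2.24 and 2.06 in EPO. The list itself fell, from 20050 to 28540 CPM in Vehicle to 7230 to 9336 CPM in EPO. A gene that did not change would therefore also rise on this scale.

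Ptger4 exceeded Ptger2 in all 6 libraries. Per kb of exon the ratio was 4.84, 3.37 and 4.82 in Vehicle and 3.45, 3.30 and 2.72 in EPO. The log2 ratio was 2.10 ± 0.301 and 1.65 ± 0.184 (SD, n = 3), with Vehicle 2 inside the EPO range (exact permutation p = 0.2, two-sided; 0.3 after adjustment over 3 ratios).

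Promoter windows of 250 bases before the annotated start were read from RefSeq (GRCm38.p6, the assembly of mm10) for 8 of the 10 members, with Ptgis and Alox5ap not in that table. The windows shown belong to the members with a window that rose, Tbxas1 and Ptger2, and to Ptger4, the partner of Ptger2. The RefSeq start of Tbxas1 lies inside the longer GENCODE gene. The windows are chr6:38918736-38918985 (plus strand), chr14:44987861-44988110 (plus strand) and chr15:5244188-5244437 (minus strand). Each is written from 5′ to 3′ on the strand of the gene, with capitals for matches to any of 6 motifs searched on both strands.
Tbxas1: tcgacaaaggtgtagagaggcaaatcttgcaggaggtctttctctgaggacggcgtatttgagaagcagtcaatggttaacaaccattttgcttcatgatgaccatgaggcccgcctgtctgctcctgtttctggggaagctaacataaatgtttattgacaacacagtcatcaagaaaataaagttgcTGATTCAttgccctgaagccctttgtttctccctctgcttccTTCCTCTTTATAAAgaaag
Ptger2: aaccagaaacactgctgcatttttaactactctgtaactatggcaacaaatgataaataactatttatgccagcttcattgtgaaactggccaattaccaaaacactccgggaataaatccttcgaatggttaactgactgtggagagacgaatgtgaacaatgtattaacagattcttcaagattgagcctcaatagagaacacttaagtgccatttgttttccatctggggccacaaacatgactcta
Ptger4: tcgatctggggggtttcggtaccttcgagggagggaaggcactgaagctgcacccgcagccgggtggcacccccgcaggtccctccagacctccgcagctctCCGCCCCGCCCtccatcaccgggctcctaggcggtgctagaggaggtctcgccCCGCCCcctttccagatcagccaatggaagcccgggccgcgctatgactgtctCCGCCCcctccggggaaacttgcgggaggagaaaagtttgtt

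The windows of the pair of PGE2 receptors differed in base composition, with 38% G or C and 3 CpG in Ptger2 and 66.8% and 19 CpG in Ptger4, beside a median of 52.4% over all windows. Ptger4 held 4 matches to the GC box GGGCGG, which 32.7% of all 32851 windows hold at least once, and Ptger2 held no match to any of the 6 motifs. Tbxas1 held TGANTCA (AP-1) 61 bases before the start, a match found in 6.75% of windows. It also held GAGGAA (ETS core, 23.3% of windows), on the opposite strand, 19 bases before the start and directly followed by 2 overlapping matches to TATAAA (12.4% of windows), 1 on each strand. The shares count windows with a match anywhere. No window of the 8 members held TTCNNNGAA, the core that STAT factors bind, or the CRE motif TGACGTCA, which 7.02% and 1.55% of all windows hold. A match describes letters and is not evidence of binding, and an absent match speaks only of this window.

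Of the pair that starts leukotriene synthesis, Alox5ap rose and Alox5 did not pass; the difference between them was not tested. Alox5ap, which encodes FLAP (ENSMUSG00000060063, chromosome 5, 149264767 to 149288153), was at 4.52, 6.45 and 6.04 CPM in Vehicle and at 22.9, 16.7 and 17.3 CPM in EPO. Every EPO library was more than 2-fold above the highest Vehicle library. The levels were 5.67 ± 1.02 and 18.9 ± 3.43 CPM (SD, n = 3), and the log2 fold change was 1.74 (SE 0.21, 95% interval 1.25 to 2.22, edgeR adjusted p = 0.00281). With single libraries left out it lay between 1.57 and 1.83 and was called each time, with adjusted p from 0.00475 to 0.0155 in edgeR.

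Alox5, 5-lipoxygenase (ENSMUSG00000025701, chromosome 6, 116410077 to 116461178), was at 8.95, 8.59 and 8.8 CPM in Vehicle and at 5.94, 6.11 and 14.4 CPM in EPO. The Vehicle libraries were nearly equal, 2 EPO libraries lay below them and EPO 3 above. The log2 fold change was 0.01 (SE 0.35, 95% interval -0.81 to 0.82, edgeR adjusted p = 0.991), and without EPO 3 it was -0.54 (edgeR adjusted p = 0.0941). In EPO 3 the summed neutrophil markers stood at 512 CPM against 54.9 and 97.1 CPM in EPO 1 and EPO 2, and the platelet markers at 256 against 129 and 137 CPM. Alox12, the lipoxygenase of platelets, named after its values were seen, had the same outlying library, with 18.4 CPM in EPO 3 against 4.07 to 6.45 CPM in the other 5. Per 1000 counts of the neutrophil list, Alox5 had 424, 342 and 136 counts in Vehicle and 108, 63.0 and 28.2 in EPO. The lowest value was that of EPO 3, where the list itself was highest. A gene that did not change would also be low there on this scale. Whether neutrophils or platelets account for the Alox5 value of EPO 3 was not tested.

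Set against the macrophage list, Alox5ap had 2.22, 1.76 and 1.5 counts per 1000 in Vehicle and 2.32, 3.55 and 4.04 in EPO. EPO 1, the library richest in macrophage genes, was level with Vehicle 1 on this scale. Without Lyz2 in the list the values were 4.18, 3.87 and 3.24 in Vehicle and 3.95, 7.84 and 8.1 in EPO, so that EPO 1 then lay within the Vehicle range and EPO 2 and EPO 3 above it. The median log2 level of the macrophage list over the Vehicle mean was 1.85, 0.54 and 0.57 in EPO 1, 2 and 3, while Alox5ap stood at 2.01, 1.56 and 1.61 and Tbxas1 at 1.48, 0.65 and 0.73. The list values used log2 CPM with a prior count of 2, less the mean of the Vehicle log2 values. The member values used CPM with no count added, over the mean Vehicle CPM, so the scales are not identical.

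**Figure D4:**
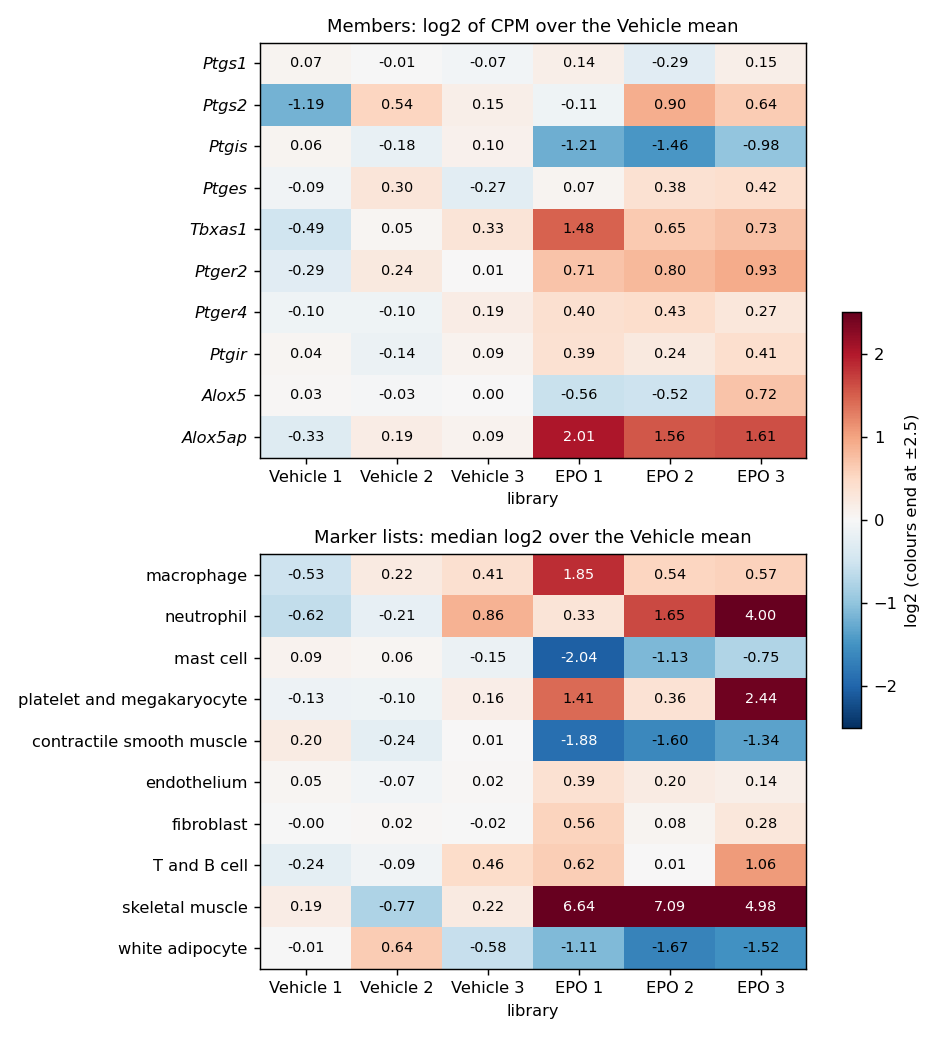
Log2 of CPM over the Vehicle mean CPM for the 10 members (upper panel), by library (colours end at ±2.5). The lower panel gives the median over each cell marker list of log2 CPM (prior count of 2) less the mean of the Vehicle log2 values. Tbxas1 and the macrophage list are both highest in EPO 1, Alox5 and the neutrophil and platelet lists are highest in EPO 3, and Ptgis and the contractile list are low in all 3 EPO libraries.

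The order of the members by level per length differed between the groups mainly in the place of Alox5ap. In Vehicle, Ptgis (247 RPKM) was followed by Ptgs1 (6.44), Ptgs2 (4.48), Ptgir (4.32), Alox5ap (3.99) and Ptges (3.66), then Ptger4 (2.15), Alox5 (2.14) and Tbxas1 (2.09), with Ptger2 last (0.502). From Ptgs1 to Ptges each neighbour's range overlapped the next, as did those from Ptger4 to Tbxas1. In EPO, Ptgis (107 RPKM) was followed by Alox5ap (13.3), above the ranges of Ptgs1 (6.51), Ptgs2 (6.5) and Ptgir (5.51), then Ptges (4.5), Tbxas1 (4.19), Ptger4 (2.78), Alox5 (2.15) and Ptger2 (0.884). Ptgs1, Ptgs2 and Ptgir overlapped in turn, as did Ptges with Tbxas1 and Ptger4 with Alox5. Exon lengths are those of 1 annotation, so the order between close genes depends on it.

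Of 56 other genes of the pathway listed by role, 47 were tested and 13 were called, 5 higher and 8 lower. Of all tested genes 12.9% were higher and 10.1% lower, and the median log2 fold change over these 47 was -0.02.

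Among 10 phospholipases A2 tested, 1 rose and 2 fell. Pla2g7, the lipoprotein-associated form that cleaves oxidised phospholipids, rose from 52.3 ± 13.8 to 119 ± 11 CPM (log2 fold change 1.19, SE 0.21, edgeR adjusted p = 0.00802). Like the summed macrophage markers, it was lowest in Vehicle 1 (36.5 CPM) and highest in EPO 1 (132 CPM). The median log2 fold change of the macrophage list was 1.17, and the part of these cells in the Pla2g7 rise was not tested. Pla2g5 fell from 3.37 ± 0.476 to 1.08 ± 0.468 CPM and Pla2g2d from 7.4 ± 2.22 to 1.99 ± 1.28 CPM, both secreted forms (log2 fold changes -1.63 and -1.89, edgeR adjusted p = 0.0178 and 0.043). Pla2g5 missed the threshold without Vehicle 1, Vehicle 2 or EPO 2, and Pla2g2d without Vehicle 1, Vehicle 2, Vehicle 3 or EPO 2. Pla2g4a, the cytosolic enzyme that releases arachidonic acid, named after its value was seen, was at 54.8, 63.4 and 69.5 CPM in Vehicle and 43, 53.3 and 54.7 CPM in EPO and did not pass (log2 fold change -0.31, edgeR adjusted p = 0.16).

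Of 7 other prostanoid synthases, Hpgds passed. Hpgds, the haematopoietic prostaglandin D synthase, was at 17.8, 24.4 and 25.9 CPM in Vehicle and 57.5, 39.8 and 34.5 CPM in EPO, with EPO 1 highest (log2 fold change 0.95, SE 0.23, edgeR adjusted p = 0.0236). Per 1000 counts of the macrophage list it had 8.75, 6.66 and 6.41 counts in Vehicle and 5.84, 8.47 and 8.06 in EPO, which overlap. Without EPO 1 the log2 fold change of Hpgds was 0.70 and still called (edgeR adjusted p = 0.0371), and the call was lost without Vehicle 1 or Vehicle 2 (0.088 and 0.0669). Akr1b3 and Ptges2, next by p, did not pass (log2 fold changes 0.43 and -0.36). Akr1b3 was called without EPO 2 and Ptges2 without EPO 1 (edgeR adjusted p = 0.0235 and 0.049).

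Of 8 leukotriene and lipoxygenase enzymes tested, 1 rose and 1 fell, and both act on leukotriene C4 or its product. Ggt5, a gamma-glutamyl transferase that turns leukotriene C4 into D4, rose from 10.9 ± 1.3 to 24.7 ± 3.73 CPM (log2 fold change 1.19, SE 0.17, edgeR adjusted p = 0.00399). Dpep1, a dipeptidase that can turn leukotriene D4 into E4 and is also a marker of adventitial fibroblasts, fell from 162 ± 12.2 to 59.4 ± 15.8 CPM (log2 fold change -1.45, SE 0.20, edgeR adjusted p = 0.00375). The 7 other fibroblast markers did not share this fall: Col1a1 and Lum, named after their values were seen, rose and the rest did not pass. Dpep2, the related dipeptidase of myeloid cells, was at 6.3, 11.7 and 12.5 CPM in Vehicle and 45.2, 17.3 and 17.1 CPM in EPO and did not pass (log2 fold change 1.38, edgeR adjusted p = 0.0585). EPO 1 set much of this value: without it the log2 fold change was 0.74 (edgeR adjusted p = 0.113). Dpep2 was called without EPO 3 (0.0498), and also with no filter (0.0127) and by DESeq2 (0.00803).

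Of 8 genes of prostanoid transport and breakdown, 2 rose. Ptgr1 acts on leukotriene B4 and reduces 15-keto prostaglandins. It was at 18.9, 17 and 24.7 CPM in Vehicle and 44.1, 48.4 and 49.8 CPM in EPO, with a wide gap between the groups (log2 fold change 1.23, SE 0.16, edgeR adjusted p = 0.00336). Abcc4, an exporter of prostaglandins and cyclic nucleotides, rose from 12.8 ± 3.39 to 21.1 ± 2.02 CPM (log2 fold change 0.72, SE 0.20, edgeR adjusted p = 0.04), a call that held with Vehicle 2 left out and was lost without any other single library. Cbr1, the third by p, did not pass (log2 fold change -0.51, edgeR adjusted p = 0.077) but was called without EPO 1 (0.016).

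Of 8 other receptors tested, 3 fell and none rose. Ptger3, the EP3 receptor that lowers cyclic AMP, was at 13.9, 11.7 and 14.6 CPM in Vehicle and 4.85, 2.75 and 4.24 CPM in EPO. The lowest Vehicle library was more than 2-fold above the highest EPO library (log2 fold change -1.76, SE 0.24, edgeR adjusted p = 0.00391). Tbxa2r, the thromboxane receptor, was at 35.7, 25.3 and 35.9 CPM in Vehicle and 21.3, 11.1 and 19.1 CPM in EPO (edgeR adjusted p = 0.042, log2 fold change -0.91, SE 0.26), and its call held with EPO 1 left out and was lost without any other single library. The 8 contractile smooth muscle markers also fell, with a median log2 fold change of -1.55. Their part in the falls of Ptger3 and Tbxa2r was not tested. Gpr17, a relative of the cysteinyl leukotriene receptors, fell from 6.79 ± 1.77 to 2.75 ± 0.913 CPM (log2 fold change -1.30, edgeR adjusted p = 0.0258), and was not called without Vehicle 1, Vehicle 2 or EPO 2. Exons of Gpr17 overlap the antisense gene Lims2 by 188 bases, and the strand option of the counts is not given.

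Of 6 epoxide pathway genes tested, which encode epoxide hydrolases and cytochrome P450 enzymes, 2 fell. Ephx2, the soluble epoxide hydrolase, was at 132, 247 and 108 CPM in Vehicle and 72.9, 64.1 and 66.2 CPM in EPO (edgeR adjusted p = 0.0216, log2 fold change -1.26, SE 0.29). Ephx1, the microsomal form, fell from 256 ± 34.2 to 149 ± 40.5 CPM (log2 fold change -0.78, SE 0.21, edgeR adjusted p = 0.0361) and kept its call with EPO 1 left out, while leaving out any other single library ended it. Ephx2 was not called without EPO 2 or EPO 3. Cyp4b1 did not pass, at 19.4, 35.9 and 19.9 CPM in Vehicle and 13.7, 16.6 and 13.9 CPM in EPO. Of the 8 white adipocyte markers 5 fell, with a median log2 fold change of -1.56, and their sum, like Ephx2 and Cyp4b1, was highest in Vehicle 2 (5780 CPM); their part in these falls was not tested.

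**Figure D5:**
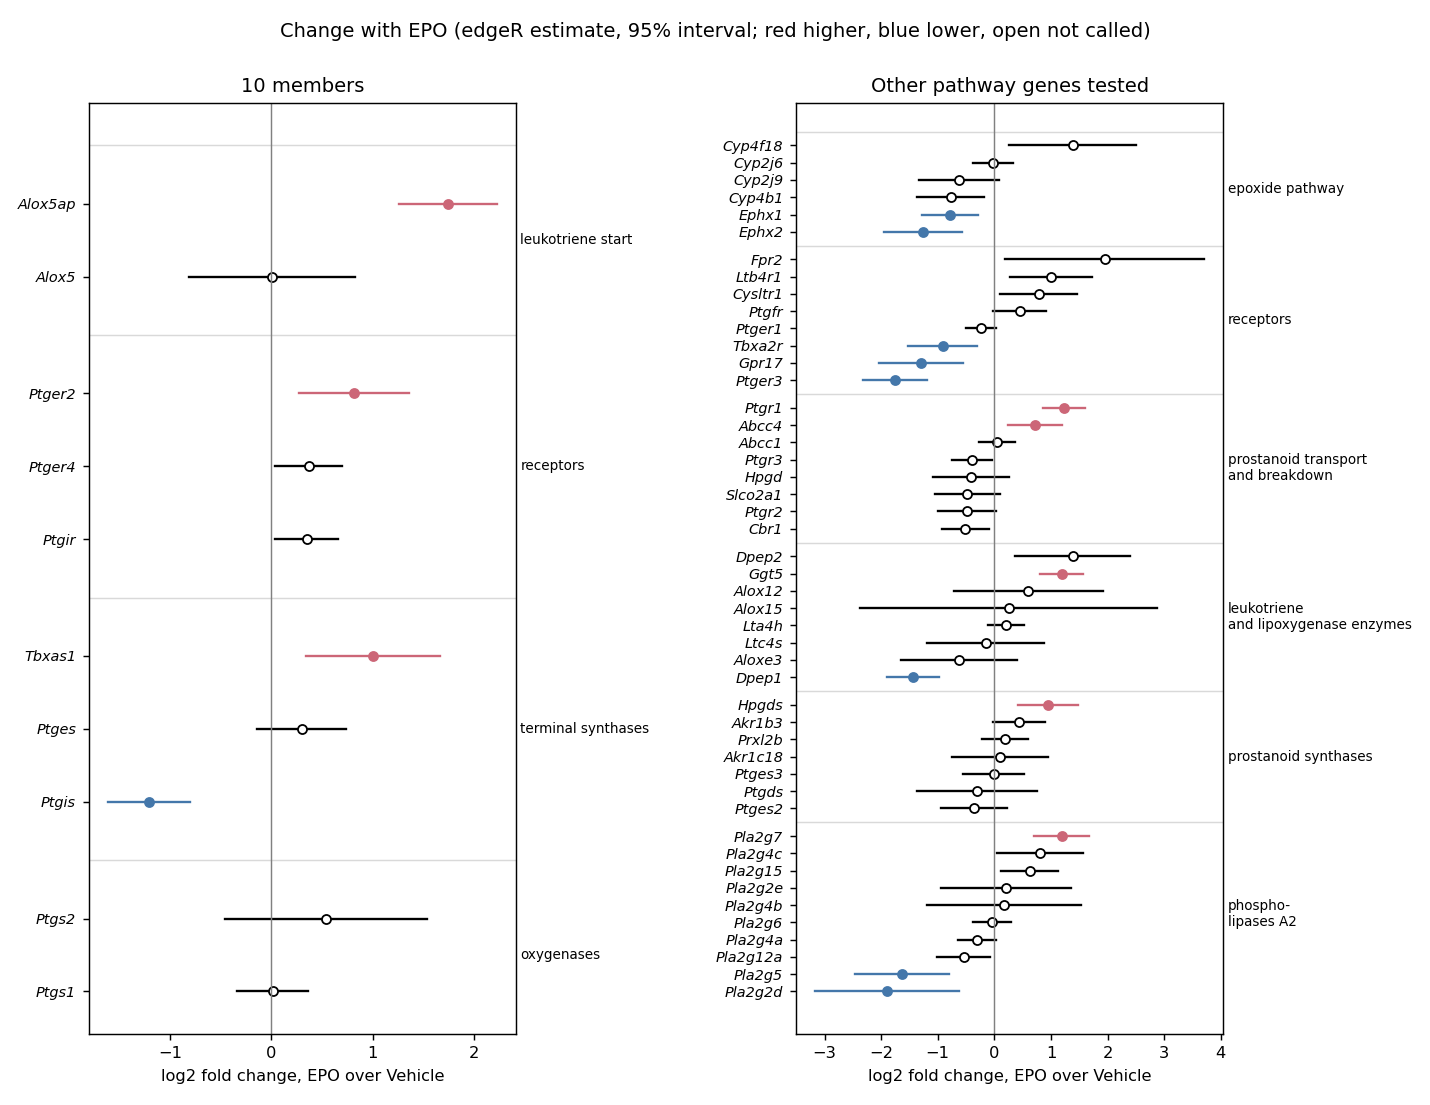
Log2 fold change of EPO over Vehicle from edgeR with its 95% interval, for the 10 members (left) and the 47 other pathway genes tested (right), grouped by role; filled red points were called higher, filled blue points lower and open points not called. Among members Alox5ap is farthest to the right and Ptgis is the one called lower, and among the others Ptger3 and Dpep1 are called lower and Ptgr1 and Ggt5 higher.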

How the data were processed

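RNA from aorta of Apoe-/- mice (3 Vehicle and 3 EPO libraries) was read from both ends after library preparation with a kit for which no strand marking is named, per the labels' protocols. Per the submitters' processing notes, CASAVA 1.8 and TopHat2 2.0.6 were used with build mm10. The deposited values are raw counts per Ensembl gene, without normalization by the authors. Neither the counting software nor its strand option nor the annotation release is given in the sources used here. Control columns were read as the Vehicle samples of the same number.

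Symbols, coordinates and exon lengths came from GENCODE M21 (GRCm38) by gene ID, with 47224 of 47643 IDs matched. Older names were used for Prxl2b (Fam213b), Ptgr3 (Zadh2) and Cyp2c44 (Cyp2c23). Exons of Ptgs1, Ptgis, Tbxas1, Ptger2, Ptger4 and Alox5ap overlap antisense genes by 82 bases or more. Those with a matching row had at most 52 counts in a library, apart from Ttc33 at Ptger4, with 414 to 613. Among the other pathway genes called, exons of Pla2g7 and Gpr17 overlap antisense genes by 319 and 188 bases. The counts of the antisense genes at Pla2g7 and Gpr17 were not examined.

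Counts were tested in R 4.3.3 with edgeR 4.0.16 (TMM, filterByExpr, then glmQLFit and glmQLFTest with a term for group alone, two-sided), with Benjamini-Hochberg adjustment over 16522 genes. The 31121 other genes were filtered out. Ratios between members used counts plus 0.5 and an exact permutation test. Members were also set against the summed counts of marker lists, a step chosen after the data were seen. CPM means and SDs are over 3 libraries. The procedure was also run on simulated counts with the same dispersion for every gene, a simpler case than these data. No result given here rests on that run. Alternatives were other scalings and filters, DESeq2 1.42.0, limma 3.58.1 (voom), robust dispersion, a replicate block, other thresholds and left-out libraries. The text names all members and up to 3 genes of smallest p in each pathway list. Members and lists were chosen with earlier results of these data known. Intervals from counting cover counting error only.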

Additional observations from a re-analysis of the deposited data

How the results depend on the processing

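Over 16 other fits, the fall of Ptgis and the rise of Alox5ap kept their calls in all, with log2 fold changes from -1.33 to -0.98 and from 1.57 to 1.83, and among the other pathway genes the same held for 4 of the 13 named that were called (Dpep1, Ggt5, Ptgr1 and Ptger3). Of the 5 named others that were not called (Akr1b3, Ptges2, Dpep2, Cbr1 and Cyp4b1), 0 stayed so in all fits; for example, Cyp4b1 had an adjusted p of 0.0244 in DESeq2. The number of higher members, 3, was 1 to 2 with single libraries left out (1 without Vehicle 1, Vehicle 2 or EPO 3), 1 without both EPO 1 and EPO 2, and 1 with the replicate number as a block, where Tbxas1 and Ptger2 were not called (edgeR adjusted p = 0.0998 and 0.0686). Tbxas1 was not called in 6 of the fits and Ptger2 in 9. The cause was not tested. The number of higher other genes, 5, was 9 with no filter, 10 with DESeq2, 8 in limma-voom with sample weights, 10 at an adjusted p under 0.1, 3 at a fold of at least 2, and 3 (without Vehicle 1) to 5 with single libraries left out. The number of lower other genes, 8, was 2 to 12 with single libraries left out (3 without Vehicle 1 or Vehicle 2, 2 without EPO 2, 5 without EPO 3, 12 without EPO 1) and 2 without EPO 1 and EPO 2. Over all genes, 3804 calls became 1635 (without Vehicle 1) to 4281 (without EPO 1) with single libraries left out, 2029 without Vehicle 2, 1548 without EPO 1 and EPO 2, where the spread of the lone EPO library is assumed to be that of Vehicle, and 2248 at a fold of at least 2. Members near 0 changed sign: Ptgs1 was at -0.00926 with library size alone, -0.0289 in limma-voom with sample weights and from -0.0596 to 0.15 with single libraries left out, and Alox5 at -0.000904 with library size alone, -0.12 in limma-voom, -0.12 with the block and from -0.54 to 0.22. The 3 ratios kept their direction in all alternatives.

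Replicate numbers were not shown to pair the libraries: deviations of same-numbered libraries from their group means correlated across genes at -0.0088, -0.0098 and 0.127, and EPO 1 and EPO 2 did not correlate best with their own number. With the block 2884 genes were called (1630 higher, 1254 lower), against 3804. Ptger2, with 49 to 165 counts per library, is the member most limited by depth.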
